A study of Homo sapiens with 6 samples.

Results

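The genes described here carry out the repair of DNA double-strand breaks and of DNA interstrand crosslinks, together with the kinases and chromatin proteins that signal this damage. The set holds 44 genes, fixed by name as members of homologous recombination, the Fanconi anemia pathway, end joining and the damage kinases. All 44 matched 1 row each among the 57820 gene rows of the expression tables, by gene identifier without its version. All 44 also passed the expression filter and are among the 17679 genes tested. The smallest estimated count of any of them in any library was 79, for RAD51B. Poly-A RNA was sequenced from U266 cells, an established multiple myeloma line, in 3 MYC samples and 3 control samples. The MYC samples were transduced with a lentivirus carrying C-MYC under the constitutive EF1A promoter. The controls are labelled only as controls, so an effect of transduction itself and one of MYC cannot be told apart, and the labels do not say whether either line is 1 clone. All samples grew in the same RPMI medium with fetal bovine serum and antibiotics. The labels do not tie replicates to separate cultures, so p-values measure only the spread between these samples, which may be technical. In bulk RNA, fewer cells of a type and less RNA per cell cannot be told apart.

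A double-strand break can be joined directly or copied from the sister chromatid. In end joining the Ku heterodimer of XRCC5 and XRCC6 caps the ends, recruits the kinase PRKDC, and the ligase LIG4 with XRCC4 and NHEJ1 seals them. In homologous recombination the MRE11, RAD50 and NBN complex and its helpers trim the ends, BRCA1, PALB2 and BRCA2 prepare the strand exchange, and RAD51B, RAD51C, RAD51D, XRCC2, XRCC3 and the RAD54 motors assist it. The Fanconi core complex attaches ubiquitin to FANCD2 and FANCI when a crosslink stalls a replication fork. ATM relays the damage to CHEK2, and both ATM and ATR relay it to chromatin. Myeloma cells are known for ongoing DNA damage and replication stress, and many of these genes are expressed most in S and G2 phase.

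Summed expected counts ran from 27139978 in MYC replicate 1 to 158667309 in MYC replicate 2, a 5.85-fold range. MYC itself had 64.7, 69.2 and 62.6 TPM (transcript abundance scaled for length and depth) in MYC libraries, against 2.67, 2.62 and 2.93 TPM in controls, where vector and endogenous transcripts were counted together. Fold changes over all genes followed the GC content of the transcripts (Spearman's rho -0.56 across 17202 genes, which share the same 6 libraries). This trend separates the groups, so its part and that of MYC cannot be told apart. Fold changes of counts are therefore given also with a GC offset, which removes each library's trend of expression on GC content. TPM levels and their order carry no such offset. At an adjusted p under 0.05 (edgeR quasi-likelihood), 5085 genes were called higher in MYC libraries and 5671 lower, and with the offset 5244 and 5101. When the offset kept each library's median level, 6397 were higher and 3909 lower, so the share of calls that were increases was 62.1%, against 47.3% without an offset. All 10 plasma cell markers checked passed the expression filter. SDC1 stood at 436.9 CPM (counts scaled to library size) in MYC and 984.7 CPM in control libraries. Its log2 fold change was -1.17, and -0.22 with the GC offset, and it was called lower both ways. CD38, the lowest, stood at 7 CPM in MYC and 1.22 CPM in control libraries. Of these 10, 2 rose and 5 fell, where 28.8% of all genes rose and 32.1% fell. With the offset 2 were higher and 7 lower, where 29.7% and 28.9% of all genes were. MZB1 was called higher only with the offset (log2 fold changes of 0.31 without and 1.06 with it). The markers of other cell types were mostly low, and their calls are given without the GC offset. Summed CPM per library was 36.7 to 40.6 in MYC and 34.5 to 36.9 in control libraries for 6 B cell genes, of which 2 rose and 1 fell. Of these BACH2 averaged 18.7 CPM in MYC and 24.3 CPM in control libraries, above CD38. Summed CPM was 16.3 to 18.2 against 9.54 to 12.1 for 8 T and NK cell genes, of which 5 rose and 2 fell. It was 2.68 to 3.18 against 2.38 to 2.95 for 8 myeloid genes (1 rose, 1 fell) and 8.96 to 10.5 against 8.66 to 10.5 for 9 stromal and epithelial genes (2 rose, 1 fell). No marker was at 0 in all 6 libraries. CD22 was at 0 in all controls, and MS4A1, CD22, CD14, LYZ, EPCAM and COL1A2, among others, were too low to test. Whether other cells bear on the repair genes was not tested.

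In MYC cells most of the 44 members were called higher on counts without a GC offset, by small amounts. With the offset 23 were higher, and on log2(TPM + 1) 18 were. Among 56 other genes of the same pathways 18 rose and 18 fell without the offset. Of 44 members 30 rose, 5 fell and 9 did not pass the test (edgeR quasi-likelihood, adjusted p under 0.05), where 28.8% of all genes tested rose and 32.1% fell (60.8% in either direction). The median log2 fold change was 0.29 over the members and -0.02 over all genes tested. The largest rise was that of MRE11, 1.74-fold, also the largest with the GC offset (log2 fold changes of 0.80 and 0.55). Without the offset H2AX was lowest (log2 fold change -1.55), but it stood at 0.11 with it, where FANCF was lowest (-0.54). The MYC libraries lay wholly above the controls for 31 members and wholly below for 5, against 32.1% and 35.1% of all genes (67.1% in either direction).

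With the GC offset the count of increases among members was smaller and that of decreases the same. It left 23 members higher and 5 lower, where 29.7% of all genes were higher and 28.9% lower (58.5% in either direction), with a median log2 fold change of 0.15 against -0.01 over all genes. Called higher both ways were 19 members, where 20.8% of all genes were. Called lower both ways were 3 members (XRCC3, FANCC and FANCF), where 19.9% of all genes were. FANCE was called in opposite directions, as were 3.54% of all genes. The median GC content of the members was 43.4%, against 49.7% over all genes tested. Among the members themselves log2 fold change fell with GC content (Spearman's rho -0.56 over 44 genes of the same 6 libraries), and with the offset rho was 0.01. Of 31 members with a GC content under 46%, 24 rose and 1 fell, where 47.0% of all 5866 such genes rose and 8.76% fell. Of 9 members with at least 50%, 3 rose and 3 fell, where 13.7% of 8346 such genes rose and 54.3% fell.

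**Figure D1:**
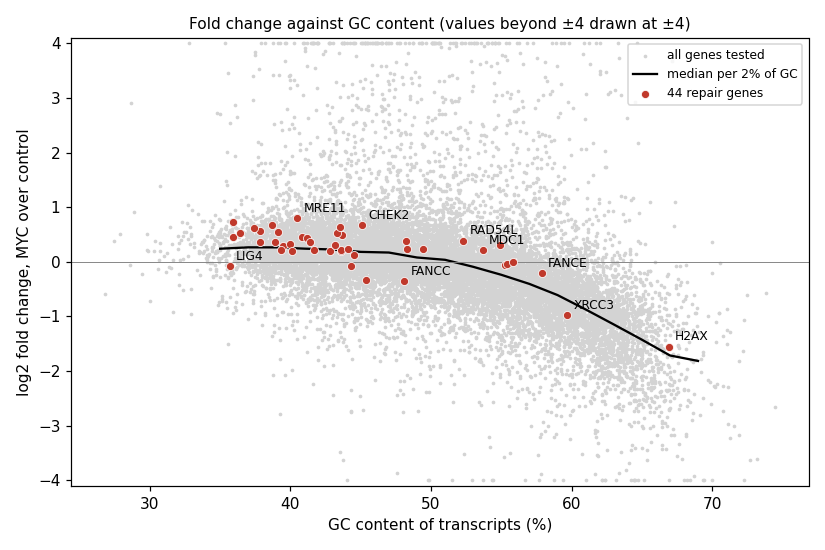
Log2 fold change of counts, MYC over control, against GC content of transcripts in percent. Grey points are all genes tested, the black line is their median per bin of GC content, and red points are the 44 repair genes. The MRE11 and CHEK2 points lie above the line, FANCC lies below it, and H2AX, at 66.9% GC and -1.55, lies close to it.

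Across 20 other settings of the analysis, 16 members kept the call of higher in every setting that tested them: BRIP1, XRCC2, RAD54L, MRE11, NBN, DNA2, FANCB, FANCM, FANCI, ATR, ATRIP, CHEK2, PRKDC, XRCC4, XRCC5 and XRCC6. FANCB was tested in 19 of them. FANCF kept the call of lower in all 20. The share of all genes that kept a call in every setting was not computed, and the settings reuse the same libraries.

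**Figure D2:**
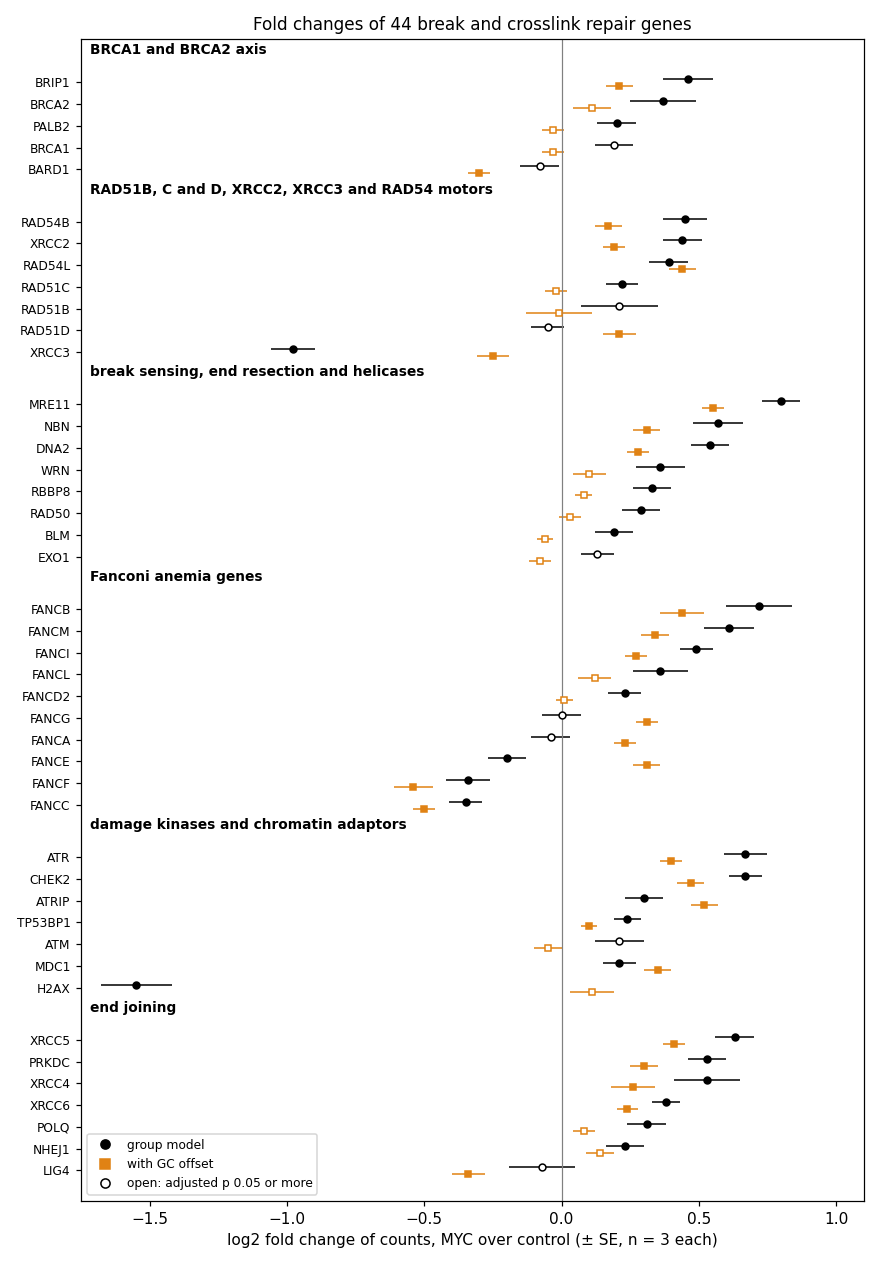
Log2 fold changes of the 44 genes, MYC over control, by role, with their SE as bars (3 libraries each). Black circles are the model with the groups only, orange squares the model with the GC offset, and open symbols did not pass the test. Most black circles lie right of 0, orange squares are closer to 0 for genes such as MRE11 and PRKDC, and H2AX stands at -1.55 without and 0.11 with the offset.

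Promoter sequence was read for the members to show which hold the letters that MYC and the S-phase factors E2F are known to bind. RefSeq windows on GRCh38.p14 of 250 bases before to 50 after a gene's start were found for 37 of 44 members. RAD54B, NBN, DNA2, WRN, FANCI, PRKDC and XRCC5 had none. The MYC and MAX E-box CACGTG, which reads the same on both strands, stood in the windows of 3 of 37 members (8.11%; BRCA2, FANCC and RAD50), against 8.77% of 27305 genes. One of the E2F strings TTTCGCGC, TTTGGCGC, TTTCCCGC or TTTGCCGC, on either strand, stood in 6 of 37 (16.2%; EXO1, FANCA, FANCC, FANCD2, XRCC2 and XRCC6), against 3.99% of genes. The 27305 genes outnumber the 17679 tested, so they include genes not tested here, and GC content of their windows was not compared. The E-box and the E2F strings share no letters where they stand in the window of FANCC. Of these 8 genes XRCC2 and XRCC6 were higher and FANCC was lower both with and without the GC offset. The windows shown are those of RAD50 (chr5:132556727-132557026, + strand), with an E-box, XRCC2 (chr7:152676092-152676391, - strand) and XRCC6 (chr22:41621045-41621344, + strand), with E2F letters, FANCC (chr9:95317660-95317959, - strand), with an E-box and E2F letters, and MRE11 (chr11:94493795-94494094, - strand), the largest rise, with neither. They are written 5′ to 3′ on the gene's strand, and capitals mark the motif letters.
RAD50: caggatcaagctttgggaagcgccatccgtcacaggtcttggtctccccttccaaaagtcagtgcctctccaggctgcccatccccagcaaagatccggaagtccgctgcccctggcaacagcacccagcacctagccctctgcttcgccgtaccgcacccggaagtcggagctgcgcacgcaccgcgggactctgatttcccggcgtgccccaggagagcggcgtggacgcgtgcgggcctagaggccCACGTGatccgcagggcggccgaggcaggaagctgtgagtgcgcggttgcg
XRCC2: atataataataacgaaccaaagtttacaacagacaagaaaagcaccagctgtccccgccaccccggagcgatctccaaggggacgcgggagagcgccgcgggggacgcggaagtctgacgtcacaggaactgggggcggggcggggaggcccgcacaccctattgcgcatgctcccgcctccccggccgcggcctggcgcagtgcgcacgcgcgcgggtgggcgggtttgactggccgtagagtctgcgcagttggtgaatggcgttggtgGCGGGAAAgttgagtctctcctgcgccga
XRCC6: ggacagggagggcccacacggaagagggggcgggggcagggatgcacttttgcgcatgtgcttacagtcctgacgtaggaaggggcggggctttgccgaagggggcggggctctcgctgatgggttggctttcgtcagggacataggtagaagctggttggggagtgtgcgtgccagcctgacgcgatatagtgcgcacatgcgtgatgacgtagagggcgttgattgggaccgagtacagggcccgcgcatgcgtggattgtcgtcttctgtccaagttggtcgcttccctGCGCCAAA
FANCC: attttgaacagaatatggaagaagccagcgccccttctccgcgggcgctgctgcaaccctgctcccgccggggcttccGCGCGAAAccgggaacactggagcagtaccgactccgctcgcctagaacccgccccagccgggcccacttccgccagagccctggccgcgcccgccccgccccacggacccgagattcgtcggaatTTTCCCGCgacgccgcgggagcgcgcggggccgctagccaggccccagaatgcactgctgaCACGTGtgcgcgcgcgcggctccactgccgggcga
MRE11: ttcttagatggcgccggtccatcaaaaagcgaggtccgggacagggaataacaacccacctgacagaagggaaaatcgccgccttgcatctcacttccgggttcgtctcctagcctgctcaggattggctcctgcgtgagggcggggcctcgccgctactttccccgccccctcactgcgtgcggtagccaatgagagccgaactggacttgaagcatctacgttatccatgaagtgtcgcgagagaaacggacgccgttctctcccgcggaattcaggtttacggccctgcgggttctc
A match of letters is a description and not a bound site.

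Levels per transcript length differed widely within the set. XRCC6 was highest, at 513.8, 522.2 and 562.6 TPM in MYC libraries against 449.4, 409.8 and 425.0 TPM in controls. XRCC5 followed, then FANCI, and these kept places 1 to 3 in both groups. PRKDC, RBBP8 and RAD51C took places 4 to 6 in both groups, and their ranges overlapped (122.9 to 154.6, 125.3 to 146.2 and 114.2 to 136.5 TPM in MYC libraries), so their order is not set. FANCB was lowest, at 2.40, 2.78 and 3.85 TPM in MYC libraries against 2.17, 1.80 and 1.92 TPM in controls. RAD51B, at 2.92 to 4.20 TPM in MYC libraries, overlapped with it there and with WRN, at 4.18 to 4.63 TPM. H2AX took place 40 of 44 in MYC libraries, against 19 of 44 in controls, on TPM without a GC offset. With the offset its log2 fold change of counts was 0.11 and not called.

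**Figure D3:**
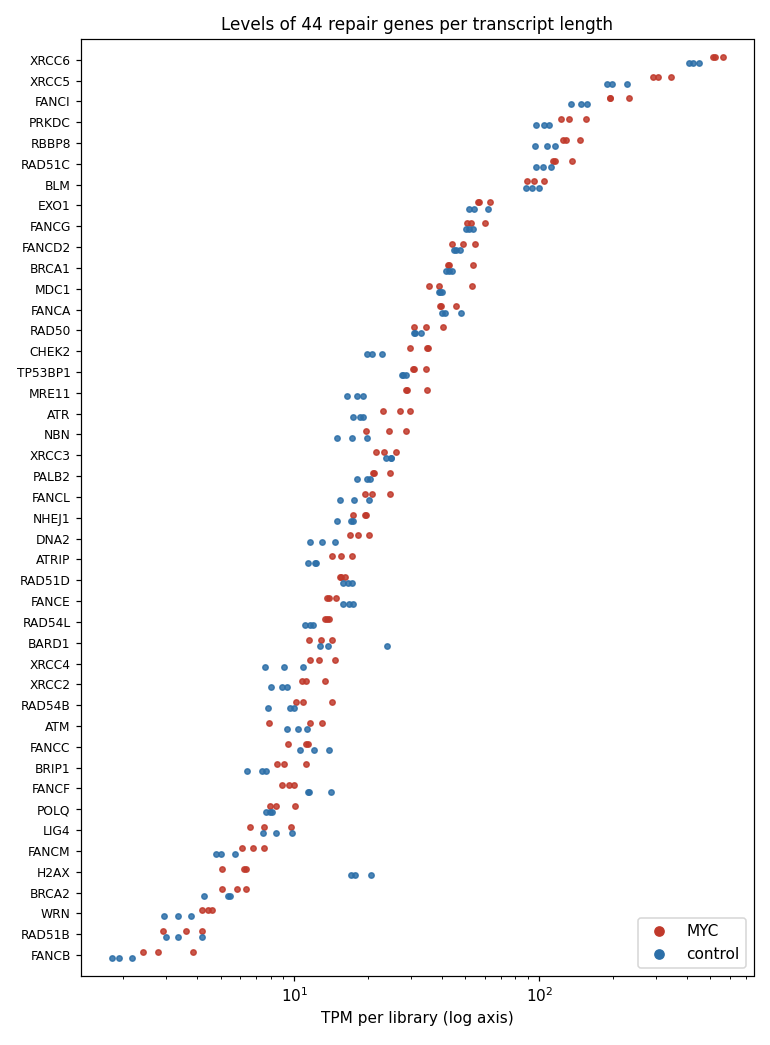
TPM of the 44 genes in each library on a log axis, ordered by the mean of the MYC libraries. Red points are MYC and blue points control libraries. XRCC6 and XRCC5 stand at the top and FANCB at the bottom, and the H2AX groups lie far apart.

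Among the genes that join ends, 6 of 7 rose and none fell, with a median log2 fold change of 0.38. Of all genes tested 28.8% rose and 32.1% fell. The median GC content of these 7 was 43.3%, and of all genes under 46% GC 47.0% rose and 8.76% fell. With the GC offset 4 of the 7 rose and 1, LIG4, was lower, where 29.7% and 28.9% of all genes were. XRCC5, the larger Ku subunit, stood at 699.2, 733.5 and 734.6 CPM in MYC libraries against 501.4, 441.4 and 457.6 CPM in controls. The groups were far apart, with a log2 fold change of 0.63 ± 0.07 (SE, adjusted p = 7.59e-05, edgeR), and 0.41 ± 0.04 with the GC offset. Its partner XRCC6 stood at 847.2, 840.3 and 861.4 CPM in MYC libraries against 662.8, 645.5 and 644.9 CPM in controls. All MYC libraries lay above all controls, at 0.38 ± 0.05 in log2 fold change (edgeR, adjusted p = 0.000337), and 0.24 ± 0.04 with the GC offset. Reads of XRCC6 and its processed copies may be shared, and XRCC6P2 alone averaged 1.59 CPM in MYC and 0.906 CPM in control libraries. PRKDC, the catalytic subunit of DNA-dependent protein kinase, stood at 596.2, 636.3 and 658.1 CPM in MYC libraries against 449.1, 402.6 and 458.4 CPM in controls. The lowest MYC library was above the highest control, and the log2 fold change was 0.53 ± 0.07 (adjusted p = 0.000274, edgeR), against 0.30 ± 0.05 with the offset. XRCC4, the scaffold of LIG4, stood at 13.9, 12.7 and 14.8 CPM in MYC libraries against 11.2, 8.17 and 9.21 CPM in controls. It rose 1.45-fold (adjusted p = 0.00483, edgeR), without overlap between the groups, with log2 fold changes of 0.53 and, under the offset, 0.26. LIG4 itself, the ligase, stood at 21.0, 23.5 and 28.2 CPM in MYC libraries against 28.4, 23 and 25 CPM in controls. Its groups overlapped and it did not pass the test (log2 fold change -0.07 ± 0.12, adjusted p = 0.654, edgeR), but with the GC offset it was called lower, at -0.34 ± 0.06 (adjusted p = 0.00105, edgeR). NHEJ1, the XLF factor that stabilises the ligase complex, rose 1.17-fold and POLQ, the polymerase of microhomology-mediated joining, 1.24-fold. Neither was called with the offset (log2 fold changes of 0.14 and 0.08). Without control replicate 2 or 3 or MYC replicate 2 the call for NHEJ1 ended (log2 fold changes of 0.22, 0.22 and 0.18). Another annotated gene on the same strand shares 65.4% of its exonic bases, so its reads may be split.

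**Figure D4:**
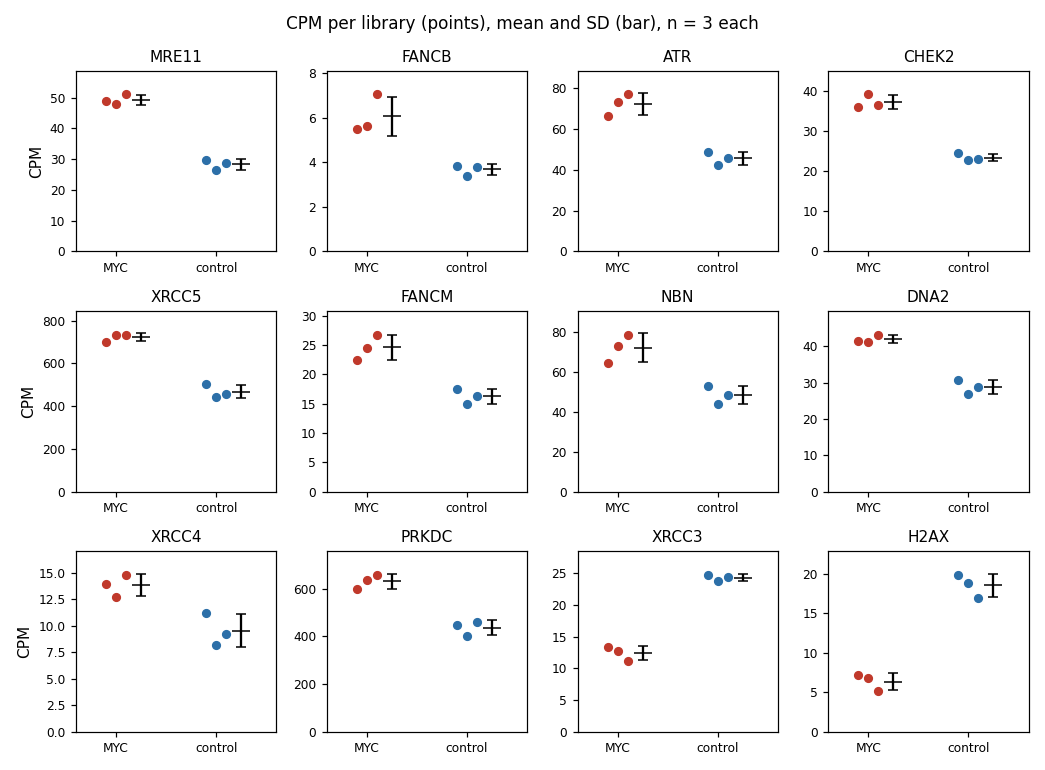
CPM per library of the 12 called members with the largest fold changes, MYC left and control right in each panel, with the mean and SD of 3 libraries as bars. The groups do not overlap in any panel. The first 10 genes are higher in MYC libraries, while XRCC3 and H2AX are lower, although H2AX was not called with the GC offset.

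Of the genes that sense and trim broken ends, 7 of 8 rose and none fell, where 28.8% of all genes rose and 32.1% fell. Their GC content was 37.8% to 44.5%, and of all genes under 46% GC 47.0% rose and 8.76% fell. With the GC offset 3 rose and none fell, where 29.7% of all genes rose and 28.9% fell. MRE11, the nuclease of the complex, stood at 48.8, 47.8 and 51.1 CPM in MYC libraries against 29.8, 26.4 and 28.7 CPM in controls. The groups were well separated, at 0.80 ± 0.07 in log2 fold change (edgeR, adjusted p = 2.66e-05), and 0.55 ± 0.04 with the GC offset. NBN, which recruits ATM to the complex, stood at 64.3, 72.9 and 78.6 CPM in MYC libraries against 53.0, 43.8 and 48.5 CPM in controls. It rose 1.49-fold (adjusted p = 0.000851, edgeR) and the groups did not overlap. Its log2 fold change was 0.57, and 0.31 with the offset. RAD50, the ATPase that tethers the ends, stood at 147.2, 163.4 and 175.4 CPM in MYC libraries against 137.8, 124.9 and 134.8 CPM in controls. It rose by less, at 0.29 ± 0.07 in log2 fold change (edgeR, adjusted p = 0.00892), and was not called with the GC offset (0.03 ± 0.04). Another annotated gene on the same strand shares 79.7% of its exonic bases. DNA2, a nuclease and helicase of long-range resection, stood at 41.4, 41.3 and 43.3 CPM in MYC libraries against 30.7, 26.8 and 28.9 CPM in controls, a 1.46-fold rise (adjusted p = 0.00019, edgeR). Its log2 fold change of 0.54 was 0.28 with the offset. RBBP8, the CtIP cofactor of MRE11, and the RecQ helicase WRN rose 1.26-fold and 1.28-fold, and BLM, another RecQ helicase, rose 1.14-fold with overlapping groups. None of these 3 was called with the GC offset (0.08, 0.10 and -0.06), where the sign of BLM turned. The call for BLM also ended without control replicate 2 or 3 or without MYC replicate 2 or 3 (0.13, 0.18, 0.19 and 0.16). EXO1, the exonuclease of resection, had a log2 fold change of 0.13, and -0.08 with the offset, and passed neither test.

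Of the 5 genes of the BRCA1 and BRCA2 axis, 3 rose and none fell, where 28.8% of all genes rose and 32.1% fell. Their GC content was 38.9% to 44.3%, and of all genes under 46% GC 47.0% rose and 8.76% fell. With the GC offset 1 was higher and 1 lower, where 29.7% and 28.9% of all genes were. BRIP1, a helicase bound by BRCA1, rose 1.38-fold (adjusted p = 0.00237, edgeR) and was the member called higher both ways (log2 fold changes of 0.46 and, with the offset, 0.21). BRCA1, a ubiquitin ligase and scaffold of recombination, stood at 120.2, 126.7 and 139.4 CPM in MYC libraries against 119.9, 105.1 and 113.5 CPM in controls. MYC replicate 1 and control replicate 1 nearly touched, and the gene missed the threshold (log2 fold change 0.19 ± 0.07, adjusted p = 0.051, edgeR), which it passed with DESeq2 (adjusted p = 0.0278). With the GC offset its value was -0.03 ± 0.04. BARD1, its ring-domain partner, stood at 41.8, 43.4 and 46.1 CPM in MYC libraries against 48.2, 43.7 and 46.9 CPM in controls. The groups overlapped, and the log2 fold change was -0.08 ± 0.07, or -0.30 ± 0.04 with the GC offset, where it was called lower (adjusted p = 0.00016, edgeR). BRCA2, a mediator of strand exchange, stood at 24.0, 24.9 and 30.5 CPM in MYC libraries against 22.1, 17.7 and 21.5 CPM in controls. It rose 1.30-fold (adjusted p = 0.0214, edgeR) without overlap, a call that ended with the GC offset (log2 fold change 0.11) and without control replicate 2 (0.27). PALB2, the bridge between BRCA1 and BRCA2, stood at 44.7, 44.6 and 47.3 CPM in MYC libraries against 41.3, 36.7 and 41.2 CPM in controls. It rose by 0.20 on the log2 scale (adjusted p = 0.0314, edgeR), and with the GC offset its sign turned, at -0.03 and uncalled. The call also ended without any 1 library other than MYC replicate 1 (log2 fold changes of 0.13 to 0.22).

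Of the group of RAD51B, RAD51C, RAD51D, XRCC2, XRCC3 and the RAD54 motors, 4 of 7 rose and 1 fell. These counts were the same with the GC offset. Over all genes 28.8% rose and 32.1% fell, and with the offset 29.7% and 28.9%. The motors RAD54L and RAD54B, which move along DNA, rose 1.31-fold and 1.36-fold, and XRCC2, which acts with RAD51B, RAD51C and RAD51D in 1 complex, rose 1.35-fold. RAD54L had log2 fold changes of 0.39 without and 0.44 with the offset, RAD54B of 0.45 and 0.17, and XRCC2 of 0.44 and 0.19. RAD54B was not called on log2(TPM + 1) (0.33, adjusted p = 0.0886, limma) and kept its call in 18 of the 20 other settings. It shares 59.1% of its exonic bases with FSBP, so their reads may be shared. RAD51C, which also binds XRCC3, rose 1.16-fold, but its sign turned with the offset (-0.02, uncalled), and it was not called without control replicate 3 (0.20). RAD51B and RAD51D did not pass the test (0.21 and -0.05). With the offset RAD51B was at -0.01 and uncalled, and RAD51D was higher, at 0.21 ± 0.06 (adjusted p = 0.0102, edgeR). XRCC3, the partner of RAD51C, stood at 13.4, 12.7 and 11.2 CPM in MYC libraries against 24.8, 23.8 and 24.4 CPM in controls. Every MYC library was far below every control, at -0.98 ± 0.08 in log2 fold change (edgeR, adjusted p = 2.53e-05), and -0.25 ± 0.06 with the GC offset. The deposited effective length of XRCC3 was 753, 679 and 570 bases in MYC libraries against 1342, 1266 and 1287 bases in controls. Per length the gene thus stood at 21.5, 23.2 and 26.1 TPM in MYC libraries against 24.8, 23.7 and 24.8 TPM in controls, where the groups overlapped and no call was made (log2 fold change of TPM + 1 of -0.05, adjusted p = 0.618, limma). In the annotation 76.7% of its exonic bases lie opposite those of KLC1, and reads of both were not told apart. RAD54L shares 25.1% of its exonic bases with LRRC41 on the other strand.

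Of the 10 Fanconi genes 5 were higher and 3 lower, where 28.8% of all genes were higher and 32.1% lower. Under the GC offset 6 were higher and 2 lower, where 29.7% of all genes were higher and 28.9% lower. FANCI, which is ubiquitinated with FANCD2, stood at 388.6, 392.3 and 424.1 CPM in MYC libraries against 297.0, 273.1 and 287.5 CPM in controls. It rose 1.41-fold (adjusted p = 0.00019, edgeR), with all MYC libraries well above the controls, and its log2 fold change of 0.49 was 0.27 with the offset. FANCD2 stood at 125.1, 128.7 and 135.5 CPM in MYC libraries against 115.3, 105.6 and 112.2 CPM in controls. It rose 1.17-fold (adjusted p = 0.00921, edgeR), but not with the GC offset (log2 fold change 0.01, uncalled). FANCM, the translocase that recruits the core complex to stalled forks, stood at 22.5, 24.5 and 26.8 CPM in MYC libraries against 17.5, 15 and 16.3 CPM in controls, a 1.52-fold rise (adjusted p = 0.000478, edgeR). Its log2 fold change of 0.61 was 0.34 with the offset. FANCB, a core subunit encoded on the X chromosome, stood at 5.52, 5.62 and 7.06 CPM in MYC libraries against 3.84, 3.41 and 3.81 CPM in controls. It rose 1.65-fold (adjusted p = 0.000935, edgeR) without overlap, with log2 fold changes of 0.72 and, under the offset, 0.44. The core subunits FANCC and FANCF fell 1.28-fold and 1.27-fold (adjusted p = 0.00108 and 0.00715, edgeR), and their log2 fold changes were larger with the offset, at -0.50 and -0.54. FANCC was not called on the TPM scale (-0.16, adjusted p = 0.3, limma), and its effective length was 3409 bases in MYC and 3988 bases in control libraries on average. FANCE, which binds FANCD2, was lower without the offset (log2 fold change -0.20, adjusted p = 0.0353, edgeR) but stood at 0.31 ± 0.05 with the offset (adjusted p = 0.00096, edgeR), so its direction is not stated. Without any 1 library other than MYC replicate 1 it was not called (-0.22 to -0.16). FANCL, the ubiquitin ligase, rose 1.28-fold and was not called with the offset (0.12), nor without control replicate 2 or 3 (0.28 and 0.32). FANCA and FANCG, subunits with a GC content of 55.4% and 55.8%, had log2 fold changes of -0.04 and 0.00 and were called higher with the offset, at 0.23 and 0.31. Genes on the other strand share 23.6% of the exonic bases of FANCA, 19.7% of those of FANCL and 11.3% of those of FANCF.

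Of the damage kinases and chromatin adaptors 5 of 7 rose and 1 fell, where 28.8% of all genes rose and 32.1% fell. With the GC offset the same 5 rose and none fell, where 29.7% of all genes rose and 28.9% fell. ATR, the kinase of stalled forks and resected ends, stood at 66.2, 73.2 and 76.9 CPM in MYC libraries against 48.5, 42.5 and 45.5 CPM in controls. The groups were well apart, at 0.67 ± 0.08 in log2 fold change (edgeR, adjusted p = 0.000123), and 0.40 ± 0.04 with the GC offset. ATRIP, which ties ATR to single-stranded DNA, stood at 26.3, 26.7 and 23.5 CPM in MYC libraries against 20.3, 20.7 and 21.2 CPM in controls. It rose 1.23-fold (adjusted p = 0.00642, edgeR), with a larger log2 fold change under the offset (0.52, against 0.30), and TREX1 shares 27.9% of its exonic bases. ATM, the kinase of unresected breaks, stood at 42.3, 46 and 52.8 CPM in MYC libraries against 43.2, 37.0 and 42.0 CPM in controls. The groups overlapped and it did not pass the test (log2 fold change 0.21 ± 0.09, adjusted p = 0.0878, edgeR), and its value was -0.05 ± 0.05 with the offset. CHEK2, the checkpoint kinase activated by ATM, stood at 36.0, 39.1 and 36.5 CPM in MYC libraries against 24.4, 22.8 and 22.9 CPM in controls. It rose 1.6-fold (adjusted p = 5.13e-05, edgeR), with a wide gap between the groups. Its log2 fold change of 0.67 was 0.47 with the offset. TP53BP1 and MDC1, which read modified chromatin beside a break, rose 1.18-fold and 1.16-fold, and both were also higher with the offset (log2 fold changes of 0.10 and 0.35). MDC1 was not called without control replicate 1 or 3 or MYC replicate 2 (0.16, 0.20 and 0.18). On log2(TPM + 1) neither was called (TP53BP1 0.18, adjusted p = 0.0599, and MDC1 0.09, adjusted p = 0.623, limma). The effective length of MDC1 was 2350, 3499 and 3832 bases in MYC libraries, and its TPM overlapped between the groups. Other genes share 28.7% of the exonic bases of TP53BP1 and 16.4% of those of ATR. H2AX, the histone variant phosphorylated around breaks, stood at 7.15, 6.78 and 5.11 CPM in MYC libraries against 19.9, 18.8 and 17.0 CPM in controls. Its log2 fold change was -1.55 ± 0.13 (adjusted p = 2.50e-05, edgeR) and turned to 0.11 ± 0.08 with the GC offset, where it was not called, and its direction is left unstated. H2AX has a GC content of 66.9%, the highest of the members.

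Partners of 1 complex were compared within libraries as ratios of TPM, for 8 pairs, with a two-sided exact permutation test that cannot give a p under 0.1 with 3 against 3. For 6 of the 8 pairs the groups did not overlap and the exact permutation p was 0.1 (adjusted p = 0.133 over the 8 pairs), so none passed. Of single genes 67.1% did not overlap in CPM between the groups. On CPM, which does not use effective length, none of the 8 pairs overlapped. The RAD50/MRE11 ratio was 1.07, 1.21 and 1.17 in MYC libraries against 1.72, 1.88 and 1.72 in controls, a difference in log2 ratio of -0.63. The XRCC4/LIG4 ratio was 1.91, 1.54 and 1.5 in MYC libraries against 1.11, 1.02 and 1.07 in controls, a difference of 0.62. The XRCC5/XRCC6 ratio was 0.566, 0.587 and 0.615 in MYC libraries against 0.509, 0.462 and 0.468 in controls, and the FANCD2/FANCI ratio was 0.226, 0.250 and 0.234 in MYC libraries against 0.305, 0.335 and 0.308 in controls. The difference in log2 ratio was -0.44 for ATM/NBN. For ATR/ATRIP it was 0.14 on TPM and 0.37 on CPM, but -0.12 between the fold changes with the GC offset, so its direction is not stated. Between the GC offset fold changes the differences were -0.51 for RAD50/MRE11, 0.60 for XRCC4/LIG4, 0.17 for XRCC5/XRCC6, -0.26 for FANCD2/FANCI and -0.36 for ATM/NBN, an alternative without a test that was chosen after seeing the data. The BRCA1/BARD1 ratio overlapped, at 3.69, 3.00 and 4.16 in MYC libraries against 3.21, 3.29 and 1.81 in controls (exact p = 0.3). Its low value in control replicate 3 goes with an effective length of BARD1 of 2574 bases there, against 4725 and 4358 bases in the other controls, and without that library the difference of 0.42 was 0.14. BRCA2/PALB2 did not separate either on TPM (log2 ratio -1.95 in both groups, exact permutation p = 1), but its difference was 0.17 on CPM, without overlap.

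**Figure D5:**
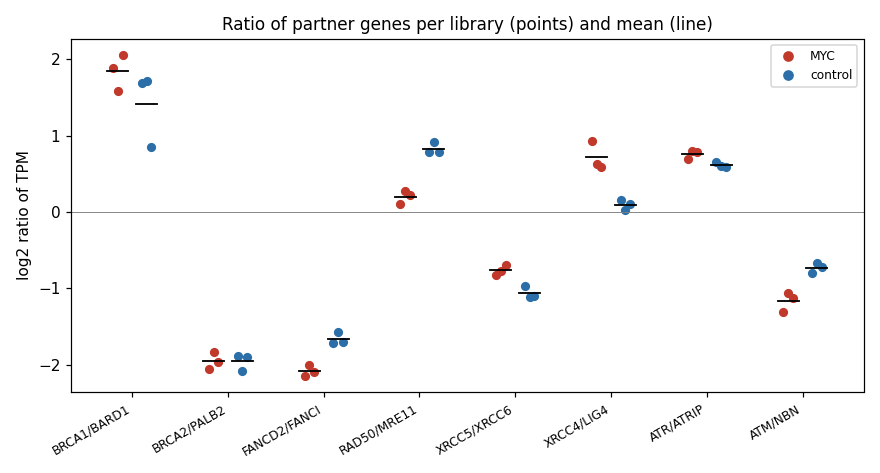
Log2 ratio of TPM of 8 partner pairs in each library, MYC in red left of control in blue, with the group mean as a line. RAD50/MRE11 and XRCC4/LIG4 show the widest gaps, and BRCA1/BARD1 and BRCA2/PALB2 overlap on this scale.

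A list of 56 other genes of the same pathways, all tested, held 18 that rose and 18 that fell (median log2 fold change 0.07). Under the GC offset 13 rose and 14 fell (median 0.01). Over all genes tested 28.8% rose and 32.1% fell, and under the offset 29.7% and 28.9%. The genes named from it were among those with the smallest adjusted p, and each has a GC content of at least 54.1%. FAAP20, a partner of FANCA, averaged 3.51 ± 0.272 CPM in MYC and 10.5 ± 0.958 CPM in control libraries (SD, n = 3 each), at -1.6 on the log2 scale (edgeR, adjusted p = 8.80e-06), and was not called with the offset (-0.26). MUS81, a nuclease that cuts joined DNA, averaged 36.1 ± 6.68 CPM in MYC and 82.9 ± 1.98 CPM in control libraries (-1.21), and was lower with the offset too (-0.50, adjusted p = 3.95e-05, edgeR). SWSAP1, a recombination factor, was lower both ways (-1.46 and -1.30). RAD9A, of the checkpoint clamp, was lower both ways but by little with the offset (-1.11 and -0.14, adjusted p = 0.0496, edgeR). EME2, a partner of MUS81, was called lower without the offset (-1.21) and higher with it (0.44), and its direction is left unstated.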

How the data were processed

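Each library's deposited RSEM gene table was used. Per the file headers, the authors deposited an expected count per gene, which divides reads shared between similar genes. The authors' TPM, per the file headers, scales these by effective length and depth, and the deposited effective length of each gene is in bases. Per the submitters' processing notes, cutadapt, TopHat2 and GRCh37 were used, with no version, and the annotation and counting strand were not stated there. The library kit does not mark strand, per the labels' protocols.

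Expected counts were rounded, filtered by expression and tested with edgeR 4.0.16 quasi-likelihood (R 4.3.3; TMM factors, group only), with Benjamini-Hochberg adjustment over 17679 genes. CPM used the same factors, and SE was the log2 fold change over the square root of F. The GC offset removed a loess trend (span 0.4) on the mean GC content of the gene's GENCODE transcripts, then TMM factors were estimated again. It left 477 tested genes without a GC value. Pairs were compared by exact permutation. limma 3.58.1 and DESeq2 1.42.0 were alternatives. On simulated counts of this comparison (17372 genes), 44.9% of genes changed 1.5-fold, 78.3% of those changed 2-fold and 98.5% of those changed 4-fold were recovered, and 13 of 157 calls were unchanged genes. In that simulation only 69, 60 and 67 genes were changed, without a GC trend. In the data 60.8% of genes were called, so the simulated shares may not hold there. The members and lists were chosen with earlier results of these data known. Members given in every library are the 12 called members with the largest changes, called members of at least 0.5 in log2 fold change that kept their direction with the GC offset, and members of the pairs. Of the other repair genes, the 6 called genes with the smallest adjusted p were to be named, of which 1 is not reported here.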

Additional observations from a re-analysis of the deposited data

How the results depend on the processing

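With log2(TPM + 1) and with log2(TPM + 0.1) in limma 18 members were higher and 3 lower, against 30 and 5. With an effective length offset 24 were higher and 3 lower. Over all genes log2(TPM + 1) gave 3759 higher and 5254 lower, and log2(TPM + 0.1) gave 3778 and 5258. The length offset gave 4628 and 5128, against 5085 and 5671 in the main fit. With a mean CPM of at least 5, 3694 genes were lower, against 5671, of 10563 genes tested. Leaving out 1 library in turn gave 24 to 32 members higher and 4 to 5 lower, and 4184 to 5076 genes higher and 4925 to 5809 lower. Differences in log2 pair ratio then ran from 0.14 to 0.57 (BRCA1/BARD1), -0.06 to 0.05 (BRCA2/PALB2), -0.46 to -0.37 (FANCD2/FANCI), -0.66 to -0.57 (RAD50/MRE11), 0.27 to 0.34 (XRCC5/XRCC6), 0.51 to 0.69 (XRCC4/LIG4), 0.12 to 0.18 (ATR/ATRIP) and -0.49 to -0.37 (ATM/NBN). On CPM the differences were 0.17 (BRCA2/PALB2), 0.37 (ATR/ATRIP, against 0.14), -0.26 (FANCD2/FANCI, against -0.42) and 0.27 (BRCA1/BARD1, against 0.42), and the other 4 pairs moved by less than 1.5 times. Between GC offset fold changes, an alternative chosen after seeing the data and without a test, they were 0.14 (BRCA2/PALB2), -0.12 (ATR/ATRIP), -0.26 (FANCD2/FANCI), -0.51 (RAD50/MRE11), 0.17 (XRCC5/XRCC6) and 0.27 (BRCA1/BARD1). Signs turned with the GC offset for BRCA1 (-0.03), PALB2 (-0.03), RAD51B (-0.01), RAD51C (-0.02), RAD51D (0.21), EXO1 (-0.08), BLM (-0.06), FANCA (0.23), FANCE (0.31), ATM (-0.05) and H2AX (0.11). With the offset and the replicate block they were the same except FANCE (0.32) and H2AX (0.12). With the whole trend removed, an alternative chosen after seeing the data, the values were BRCA1 -0.07, PALB2 -0.07, RAD51B -0.05, RAD51C -0.06, RAD51D 0.17, RAD50 -0.0, BLM -0.1, FANCA 0.19, FANCE 0.28, FANCD2 -0.03, ATM -0.09 and H2AX 0.07, and the log2 fold change of EXO1 was -0.12. With each library's median kept, also chosen after seeing the data, they were RAD51D 0.29, FANCA 0.31, FANCE 0.4 and H2AX 0.19. FANCG, at 0.00, was -0.01 with total counts, limma-voom or a mean CPM of at least 5, -0.02 without a filter, and -0.05 to -0.01 without control replicate 1 or 3 or MYC replicate 1. LIG4 ran from -0.18 without MYC replicate 3 to 0.02 without MYC replicate 1. The cause of these changes was not tested. Replicate numbers did not pair the libraries (correlations of same-numbered deviations -0.047, 0.078 and 0.11, and not every library correlated best with its own number). With the replicate block 27 members were higher and 4 lower, and over all genes 4649 were higher and 5380 lower. Depth differed 5.85-fold between libraries, and 3 libraries a group limit what small changes can be called.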
